A study of Mus musculus with 12 samples.

Results

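The 38 genes described here are an interferon response and antigen presentation module measured by RNA-seq in mouse inguinal white adipose tissue (iWAT), the subcutaneous depot in which beige adipocytes arise in the cold. They were chosen by gene symbol, as 16 type I interferon response genes, 3 immunity-related GTPase (IRG) genes, 10 guanylate-binding protein (Gbp) genes, 6 genes of MHC class II presentation and 3 of MHC class I presentation. The choice rested in part on the fall of Gbp11 in the cold. The cold values of WT mice are therefore given as a description without a test of single genes, and no test of Gbp11 is read in any comparison. The 38 genes are 38 of the 23420 genes in the count table, and all 38 were among the 15306 genes that passed the filter on low counts.

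The study asked how HIF2α, the hypoxia-inducible transcription factor encoded by Epas1, acts in adipocytes during thermogenesis. Libraries came from 10-week-old male C57BL/6 mice, in 4 groups of 3 mice. WT here means HIF2a loxP/loxP with no Cre, and HIF2α AKO means Adipoq-Cre HIF2a loxP/loxP. Each genotype was kept either at thermoneutrality (TN, 30 °C, 1 week) or in the cold (4 to 6 °C, 3 days). Every mouse thus carried floxed alleles and only the AKO mice carried Cre. Adipoq-Cre acts in adipocytes, so the immune, endothelial and stromal cells of the AKO tissue keep the gene.

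Libraries held 22368316 to 35204631 counts in genes. The targeted gene did not follow the genotype label at either temperature. At TN, Epas1 stood at 372, 278 and 429.7 CPM (read counts scaled to library size) in WT and 289, 394 and 360.0 in AKO. In cold it stood at 576, 562 and 743 in WT and 985, 743 and 748 in AKO. The paper itself reports that mRNA of the deleted Hif genes was lower in adipose tissue of its knockout mice. These are counts over the whole gene, which cannot resolve the floxed part, so the groups are named below as their labels give them. Ucp1, the uncoupling protein of thermogenic adipocytes, was at 0.204 to 3.85 CPM in all 6 TN mice and at 2171 to 5895 CPM in all 6 cold mice, and Adipoq, the adipocyte hormone adiponectin, was at 899 to 2467 CPM. B cell and T cell transcripts and the lymph node stromal genes Cxcl13 and Glycam1 were also present in every library, at 55.2 to 159 CPM for Cxcl13. Transcripts of 12 skeletal muscle genes summed to 1963 CPM in TN AKO replicate 2 and 1710 CPM in cold AKO replicate 1 against at most 115 CPM in the other 10 libraries, and epithelial genes summed to 211 CPM in TN WT replicate 3 against at most 10.6 CPM elsewhere. Counts of calls are therefore also given without these libraries.

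Type I interferons signal through a receptor coupled to JAK kinases, which activate STAT2. With IRF9 it forms part of a complex that binds interferon-stimulated response elements (ISREs) and switches on antiviral genes such as the oligoadenylate synthetases, the IFIT proteins and the MX GTPases, while IRF7 amplifies interferon production. Interferon-γ acts through gamma-activated sites (GAS) and is the main inducer of the GBP and IRG families, large GTPases that attack vacuoles holding intracellular pathogens. MHC class II molecules display peptides on B cells, macrophages and dendritic cells under the master regulator CIITA, whereas MHC class I molecules, loaded through the TAP transporter, are found on nearly all cells. In fat these programs run in resident immune cells and in part in adipocytes and progenitors, and an inguinal depot also encloses a lymph node. In such bulk tissue, fewer cells of a type and less RNA per cell cannot be told apart.

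The start-site sequences of the module were searched for response elements of these pathways. RefSeq promoters of GRCm38.p6, running from 250 bases before to 50 after the start site, were found for 24 of the 38 genes, and none was listed for Gbp11. The ISRE core GAAANNGAAA, searched on both strands, was present in 15 of the 28 member promoters (53.6%) and in 3.44% of all 32851 promoters. It was found in 7 of the 12 type I genes with a promoter, all 3 IRG genes, all 4 Gbp genes with a promoter (Gbp2, Gbp3, Gbp5 and Gbp7), B2m and none of the 3 MHC class II genes with a promoter. The GAS core TTCNNNGAA stood in 6 of the 28 member promoters (21.4%) against 8.3% of all promoters, and the MHC class II Y box CTGATTGG stood in 3 (10.7%), those of H2-Aa, H2-Eb1 and Tap1, against 4.1% of all promoters. The following windows were picked from promoters with a match, for genes whose values are given below. They do not stand for all called genes: Oas2, Oasl2 and Irf9 are not among the 7 type I genes with the ISRE core. Capitals mark the ISRE core in the first 5 and the Y box in the last 3, on the gene's strand or as its reverse complement. A match is a description of the sequence and says nothing about binding in these samples.

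Oas3 (chr5:120777715-120777744, minus strand): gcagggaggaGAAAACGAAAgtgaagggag

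Oas1a (chr5:120907526-120907555, minus strand): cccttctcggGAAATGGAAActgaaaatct

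Stat2 (chr10:128270266-128270295, plus strand): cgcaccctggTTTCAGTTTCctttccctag

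Irgm2 (chr11:58214903-58214932, plus strand): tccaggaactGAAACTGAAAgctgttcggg

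Gbp3 (chr3:142559989-142560018, plus strand): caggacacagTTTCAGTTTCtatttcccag

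H2-Aa (chr17:34287856-34287885, minus strand): aagagaattttCTGATTGGttctggcgagt

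H2-Eb1 (chr17:34305794-34305823, plus strand): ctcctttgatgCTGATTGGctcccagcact

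Tap1 (chr17:34187323-34187352, plus strand): ggctcggctttCCAATCAGcggctgcgcgc

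Levels per length spanned a wide range. As the mean over all 12 libraries in CPM per kilobase of annotated exon, B2m, the invariant MHC class I light chain, was the highest at 2084, followed by the MHC class II invariant chain Cd74 at 1009 and the class II chains H2-Eb1 at 389, H2-Ab1 at 335 and H2-Aa at 248. The type I genes ran from 2.09 for Mx2 to 26.5 for Irf7, and the Gbp genes from 1.65 for Gbp10 to 30.6 for Gbp2. Gbp11 stood at 3.69, the second lowest of its family. The interferons themselves were hardly detected: Ifng was at 0.0804 to 0.641 CPM, and Ifnb1 averaged 0.0298 CPM or less in each group.

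In WT mice, the level in cold was below that at TN for nearly the whole module, and Gbp11 stood far outside the rest. Of the 37 genes other than Gbp11, 36 had a lower fitted level in cold, beside 52.9% of all genes tested. Their median log2 fold change was -0.41 beside -0.03 over all genes. Ranges of the 3 cold and 3 TN mice did not overlap for 12 of the 37, all lower, beside 19.2% of all genes. By edgeR's quasi-likelihood test 0 of the 37 passed an adjusted p of 0.05, while 21.3% of all genes passed in either direction and 5.68% as lower. Since this contrast guided the choice of genes, nothing is read from that count. The count over all 38 genes, Gbp11 included, was 1. Without TN WT replicate 3 this count over 38 became 7, and without cold AKO replicate 1 or cold AKO replicate 3 it became 2. It was 3 without both libraries with muscle transcripts and 9 when TN WT replicate 3 was left out as well. With Gbp11 included, 37 of the 38 genes were fitted lower. This leaned on TN WT replicate 1, without which 32 genes stayed lower, and among the 6 others were Irf7 and Ifit3, at 0.03 and 0.12.

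Gbp11, a member of the Gbp cluster on chromosome 5 (chr5:105323042-105346472 in GRCm38, minus strand) that GENCODE vM21 classes as a polymorphic pseudogene, had the largest difference. It was at 29.1, 22.3 and 15.4 CPM in the TN WT mice and at 3.85, 2.73 and 4.26 CPM in the cold WT mice. The TN AKO mice had 13.2, 7.09 and 4.35 CPM and the cold AKO mice 4.07, 8.0 and 4.97 CPM. All 3 TN WT mice were above every other mouse, all 3 TN AKO mice were above the cold WT mice, and the cold AKO range overlapped those of TN AKO and cold WT. Its log2 fold change in cold was -2.62 ± 0.41 (SE) in WT and -0.52 ± 0.40 in AKO, and AKO was lower than WT by 1.45 at TN and higher by 0.65 in cold. These rest on 453 to 1142 reads per library in TN WT and 64 to 338 in the other libraries. Of its possible windows of 50 transcript bases, 19.2% also occur in another gene, most often Gbp8.

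**Figure D1:**
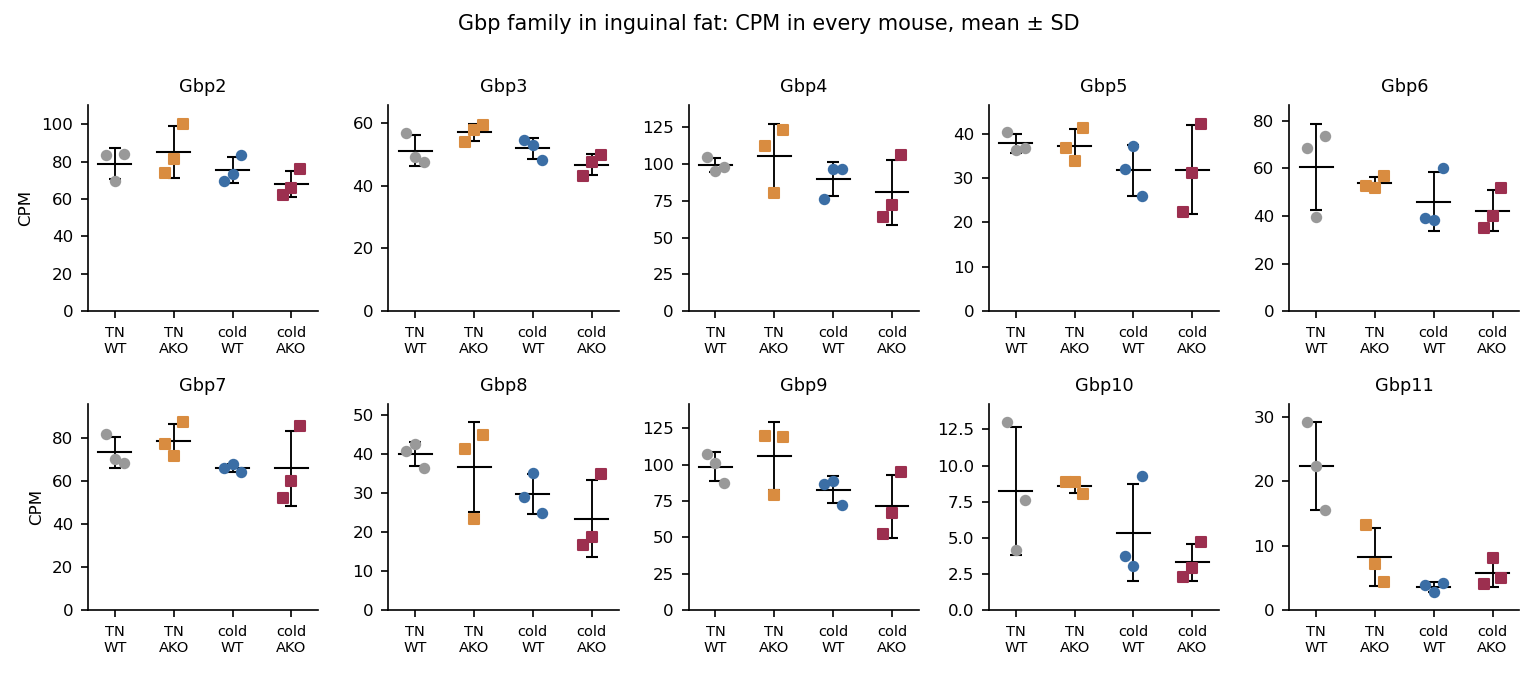
CPM of the 10 Gbp genes in every mouse (points), with the mean and SD of the 3 mice per group (TN WT, TN AKO, cold WT and cold AKO); each vertical axis starts at 0 and has its own scale. In Gbp11 the 3 TN WT mice, at 15.4 to 29.1 CPM, sit above the other 9 mice, which lie between 2.73 and 13.2 CPM, which is the case in no other Gbp gene.

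The other 9 Gbp genes were much closer together. In WT their log2 fold changes in cold ran from -0.62 (Gbp10) to 0.02 (Gbp3), with a median of -0.25. Only Gbp7 and Gbp8 had cold WT mice that were all below the TN WT mice, beside 19.2% of all genes. Gbp4, the Gbp gene with the highest mean CPM, was at 105, 95.2 and 97.9 CPM in TN WT and 76.2, 96.6 and 96.6 CPM in cold WT. Gbp9 was at 107, 101 and 87.6 CPM in TN WT and 86.9, 88.8 and 71.9 CPM in cold WT. In both genes the ranges of the groups overlapped.

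The AKO mice give the cold comparison in 6 other libraries. It is no independent check, because the fall of Gbp11 that guided the choice was not tied to a genotype. The spread was also estimated from all 12 libraries, WT included. Here the type I interferon genes were the group with the most calls. Among the 37 genes tested, 13 passed an adjusted p of 0.05, all lower in cold, where 27% of all genes passed in either direction and 11.5% as lower. All 37 were fitted lower, beside 54.2% of all genes, with a median log2 fold change of -0.69 beside -0.05 over all genes, and 20 had ranges that did not overlap, beside 25.6%. Of the 13 calls, 9 were type I genes (of 16), 1 an IRG gene (of 3), 1 a Gbp gene (of 9), 1 an MHC class II gene (of 6) and 1 an MHC class I gene (of 3). Medians of the log2 fold change were -0.97 for the type I genes, -0.46 for the IRG genes, -0.35 for the 9 Gbp genes, -0.58 for MHC class II and -0.18 for MHC class I.

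The count of 13 depended on single mice. It became 4 without TN AKO replicate 1, 5 without TN AKO replicate 3, 4 without cold AKO replicate 1, 6 without cold AKO replicate 2 and 26 without cold AKO replicate 3, and 5 without both libraries with muscle transcripts. In these 6 settings the type I genes gave 4, 5, 4, 5, 15 and 4 of the calls. The count also moved with WT mice, to 9, 9 and 15 without cold WT replicates 1, 2 and 3. Without TN WT replicates 1, 2 and 3 it was 13, 13 and 12. Oas2, Stat2 and Irf9 passed in all 12 leave-outs and in the 8 other alternatives, and Oasl2 in 12 and 7. Usp18 passed in 3 of 12 leave-outs, Gbp3 and Oas3 in 5, Irf7 and Irgm2 in 7, Oasl1 and Tap1 in 8, Ciita in 9 and Oas1a in 10. Without both libraries with muscle transcripts only Irf9, Oas2, Oasl2, Stat2 and Tap1 passed. All 38 genes were fitted lower under every alternative run.

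**Figure D2:**
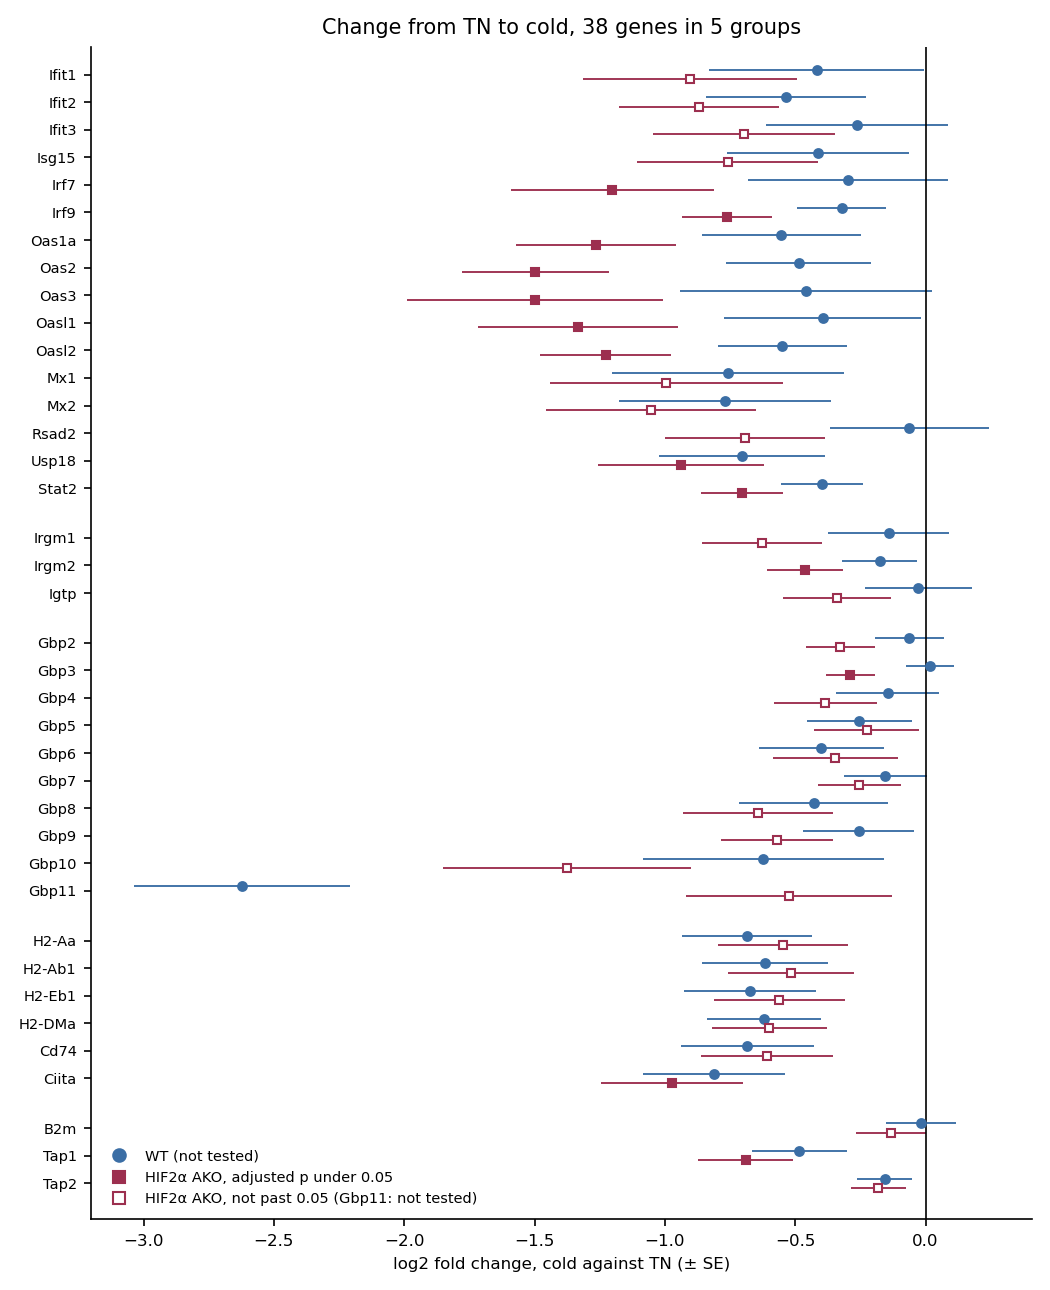
Log2 fold change from TN to cold (horizontal axis, ± SE) for the 38 genes in 5 groups, for WT (circles, not tested) and AKO mice (squares, filled where the adjusted p was under 0.05). Nearly all points lie left of 0; the type I genes at the top reach -1.50 in AKO mice, Gbp11 stands alone at -2.62 in WT mice, and the 6 MHC class II genes lie between -0.97 and -0.52 in both genotypes.

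The effectors of the type I response with the largest changes were the oligoadenylate synthetases, which sense double-stranded RNA and activate RNase L, and their OAS-like relatives. Oas2 was at 96.0, 78.3 and 72.7 CPM in TN AKO and at 19.0, 30.4 and 38.1 CPM in cold AKO, and so fell by 1.50 ± 0.28 (SE) on the log2 scale (edgeR adjusted p = 0.0043). Every cold AKO mouse was below every TN AKO mouse, and the cold WT mice, at 48.7, 30.6 and 26.1 CPM, overlapped the TN WT mice at 59.9, 38.8 and 48.8 CPM. Oasl2 fell from 60.5, 61.0 and 52.5 CPM to 16.4, 26.3 and 31.5 CPM in AKO (log2 fold change -1.23 ± 0.25, edgeR adjusted p = 0.0065). Its WT mice were at 55.9, 30.8 and 41.2 CPM at TN and 35.1, 26.6 and 25.8 CPM in cold, and overlapped.

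Oas1a fell from 31.3, 24.3 and 22.2 CPM to 7.02, 10.9 and 14.3 CPM in AKO (log2 fold change -1.26 ± 0.31, edgeR adjusted p = 0.0144), beside 23.8, 14.6 and 17.0 CPM and 17.8, 11.2 and 8.81 CPM in TN and cold WT. Reads of Oas1a can be lost, since 57.6% of its 50-base windows also occur in Oas1g and multi-aligned reads were not counted. Oas3 fell from 63.6, 34.4 and 48.1 CPM to 5.71, 15.2 and 30.7 CPM (log2 fold change -1.50 ± 0.49, edgeR adjusted p = 0.0443), beside 38.9, 18.7 and 24.4 CPM and 25.5, 15.1 and 19.1 CPM in WT. Oasl1, whose product restrains Irf7 translation, fell from 31.9, 19.3 and 27.8 CPM to 5.23, 10.3 and 15.7 CPM (log2 fold change -1.33 ± 0.38, edgeR adjusted p = 0.0281), beside 21.7, 11 and 13.0 CPM and 15.5, 9.31 and 10.1 CPM in WT. In all 3 genes the AKO groups did not overlap and the WT groups did, and cold AKO replicate 1 was the lowest of the 12 libraries.

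The regulators of the response were also lower. Stat2, part of the ISRE-binding complex, was at 136, 123 and 136 CPM in TN AKO and 60.0, 81.3 and 101 CPM in cold AKO (log2 fold change -0.70 ± 0.16, edgeR adjusted p = 0.0099). In WT it was at 122, 105 and 100.3 CPM at TN and 85.9, 84.4 and 78.5 CPM in cold, so in both genotypes the cold mice were all below the TN mice. Irf9, its DNA-binding partner, fell by 0.76 ± 0.17 on the log2 scale in AKO (edgeR adjusted p = 0.0105). Irf7 went from 186, 122 and 154 CPM to 34.5, 70.0 and 96.1 CPM in AKO (log2 fold change -1.20 ± 0.39, edgeR adjusted p = 0.0425), while in WT it was at 139, 72.3 and 84.9 CPM at TN and 119, 64.0 and 58.3 CPM in cold, with overlap. Usp18, which removes ISG15 from proteins and damps the receptor, had a log2 fold change of -0.94 ± 0.32 in AKO (edgeR adjusted p = 0.0488), with overlapping ranges.

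The remaining 7 type I genes did not pass in AKO mice. Ifit1, Ifit2 and Ifit3, which bind viral RNA, had log2 fold changes of -0.90, -0.87 and -0.70. Isg15, the ubiquitin-like modifier, was at -0.76, the antiviral GTPases Mx1 and Mx2 (the second classed as a polymorphic pseudogene) at -0.99 and -1.05, and Rsad2 (viperin) at -0.69. Their edgeR adjusted p-values lay between 0.0562 (Ifit2) and 0.1494 (Ifit3), and in all 7 the cold and TN ranges of the AKO mice overlapped. Cold AKO replicate 3 was the highest cold AKO mouse in each of the 16 type I genes, and without it the type I median became -1.48.

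**Figure D3:**
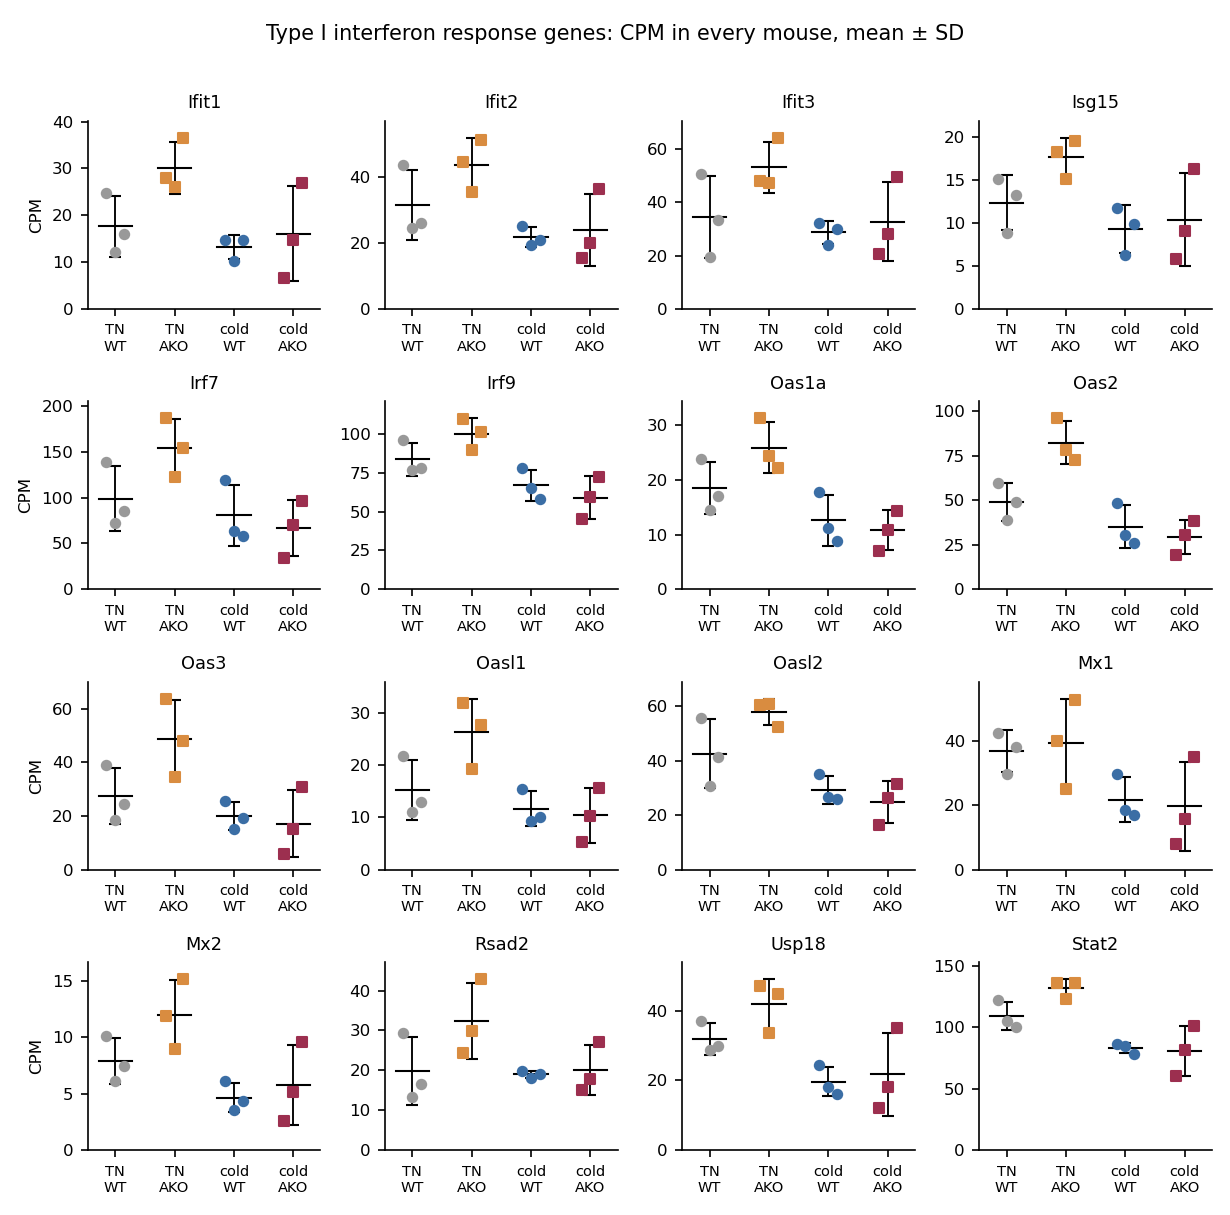
CPM of the 16 type I interferon response genes in every mouse (points), with the mean and SD of the 3 mice in each group; each vertical axis starts at 0 and has its own scale. TN AKO has the highest mean in all 16 genes, and within cold AKO replicate 1 is the lowest and replicate 3 the highest point, for example 5.71 and 30.7 CPM for Oas3.

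Genes of interferon-γ defence gave fewer calls. Irgm2, an IRG regulator that guards host membranes, was at 99.4, 91.5 and 98.6 CPM in TN AKO and 54.3, 74.3 and 81.6 CPM in cold AKO (log2 fold change -0.46 ± 0.15, edgeR adjusted p = 0.0386), beside 92.1, 75.7 and 80.9 CPM and 72.3, 65.5 and 82.4 CPM in WT. Irgm1 was at 101, 76.0 and 97.1 CPM and then 39.4, 55.7 and 81.9 CPM in AKO, with overlap, and did not pass (edgeR adjusted p = 0.0640). Igtp (Irgm3) had a log2 fold change of -0.34. Irgm2 and Igtp overlap each other in the annotation, and 6.79% of the 50-base windows of Irgm2 occur in Igtp.

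Among the Gbp genes, Gbp3 passed in AKO mice with a small change, from 54.0, 57.8 and 59.3 CPM to 43.0, 47.4 and 49.7 CPM (log2 fold change -0.29 ± 0.09, edgeR adjusted p = 0.0415). In WT it was at 56.7, 49.2 and 47.5 CPM at TN and 54.5, 52.9 and 48.1 CPM in cold. Gbp10 had the largest difference of the family in AKO, from 8.84, 8.88 and 8.06 CPM to 2.28, 2.89 and 4.73 CPM without overlap, and just missed the threshold (log2 fold change -1.38 ± 0.48, edgeR adjusted p = 0.0526). It is also the least certain, because 84.1% of its 50-base windows occur in another gene, most in Gbp6, and 46.3% of its exon bases lie within exons of Gm43302. Gbp4 was at 112, 80.5 and 123 CPM in TN AKO and 63.9, 72.2 and 106 CPM in cold AKO, and Gbp9 at 119, 79.2 and 119 CPM and 52.5, 66.4 and 95.0 CPM, both with overlap. The other 5 genes, Gbp2, Gbp5, Gbp6, Gbp7 and Gbp8, had log2 fold changes between -0.64 and -0.23 and did not pass.

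MHC class II genes were lower in cold in both genotypes. In WT the 6 log2 fold changes lay between -0.81 and -0.62, and in AKO between -0.97 and -0.52. Ciita, the regulator of the class II genes, was at 182, 239.6 and 130.3 CPM in TN WT, 127, 119.6 and 68.0 CPM in cold WT, 207, 155 and 186 CPM in TN AKO and 69.9, 105 and 104 CPM in cold AKO. It was the class II gene that passed in AKO (log2 fold change -0.97 ± 0.27, edgeR adjusted p = 0.0255), and in both genotypes all cold mice were below all TN mice. The call was lost without TN AKO replicate 1, TN AKO replicate 3 or cold AKO replicate 1.

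Cd74, which chaperones class II molecules, was at 2161, 2586 and 1592 CPM in TN WT and 1469.8, 1556 and 921 CPM in cold WT. In AKO it was at 2469.8, 1652 and 1939.7 CPM at TN and 1097, 1472 and 1407 CPM in cold (log2 fold change -0.61 ± 0.25, edgeR adjusted p = 0.0935). H2-Aa was at 1215, 1455 and 885 CPM in TN WT, 853, 851 and 509 CPM in cold WT, 1309.8, 896 and 1070.4 CPM in TN AKO and 611, 824 and 808 CPM in cold AKO (log2 fold change in AKO -0.55 ± 0.25, edgeR adjusted p = 0.1192). For both genes the cold mice of each genotype lay below its TN mice, but the spread among TN mice was wide. H2-Ab1, H2-Eb1 and the peptide-exchange chain H2-DMa had log2 fold changes of -0.52, -0.56 and -0.60 in AKO and did not pass. All 6 class II genes had cold AKO mice below all TN AKO mice, beside 25.6% of all genes. In WT this held for 5 of 6, H2-Ab1 being the exception, beside 19.2% of all genes. The WT contrast guided the choice of genes, so nothing is read from its count.

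Of the MHC class I genes, Tap1, a subunit of the peptide transporter, was at 242, 169 and 215 CPM in TN AKO and 103, 125 and 159.5 CPM in cold AKO (log2 fold change -0.69 ± 0.18, edgeR adjusted p = 0.0197). In WT it was at 218, 208 and 190.5 CPM at TN and 163, 158 and 120.2 CPM in cold, again without overlap. Its partner Tap2 had a log2 fold change of -0.18 in AKO and -0.16 in WT, and B2m of -0.13 and -0.02. B2m was at 1629 to 1896 CPM in TN WT, 1702 to 1930.1 CPM in cold WT, 1796 to 2024 CPM in TN AKO and 1683 to 1747 CPM in cold AKO. Neither Tap2 nor B2m passed in AKO.

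Transcripts of immune cells moved alongside these genes. Calls among their markers stand beside 5.68% of all genes called lower in WT and 11.5% in AKO, and 15.6% called higher in each. Summed over 9 B cell markers, the level was 1273 to 2107 CPM in the 6 TN mice and 632 to 1145 CPM in the 6 cold mice, with all 9 fitted lower in each genotype (3 called in WT and 6 in AKO). The 12 T and NK cell markers summed to 466 to 776 CPM at TN and 333 to 633 CPM in cold, all 12 fitted lower, with 4 called in each genotype. The 12 macrophage markers had a median log2 fold change of -0.08 in WT, with none called and ranges of 1753 to 3057 CPM at TN and 1448 to 2899.7 CPM in cold. In AKO their median was -0.67, with 3 called and ranges of 2823 to 3053 CPM and 1621 to 1889 CPM. The 8 dendritic cell markers had medians of -0.57 and -0.42, with 1 and 2 called lower, and the 5 tested lymph node stromal genes -0.38 and -0.46 with none called. The 7 fibroblast and progenitor markers had medians of -0.41 and -0.69, with 2 and 4 called lower. The 7 endothelial markers had medians of 0.06 and 0.10, with 0 and 1 called higher. Of 10 adipocyte markers 5 were called higher in WT and 2 in AKO, with medians of 1.04 and 0.68. Among these 10, 0 were fitted lower in WT and 2 in AKO. The part of these cell types in the lower module levels was not tested.

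**Figure D4:**
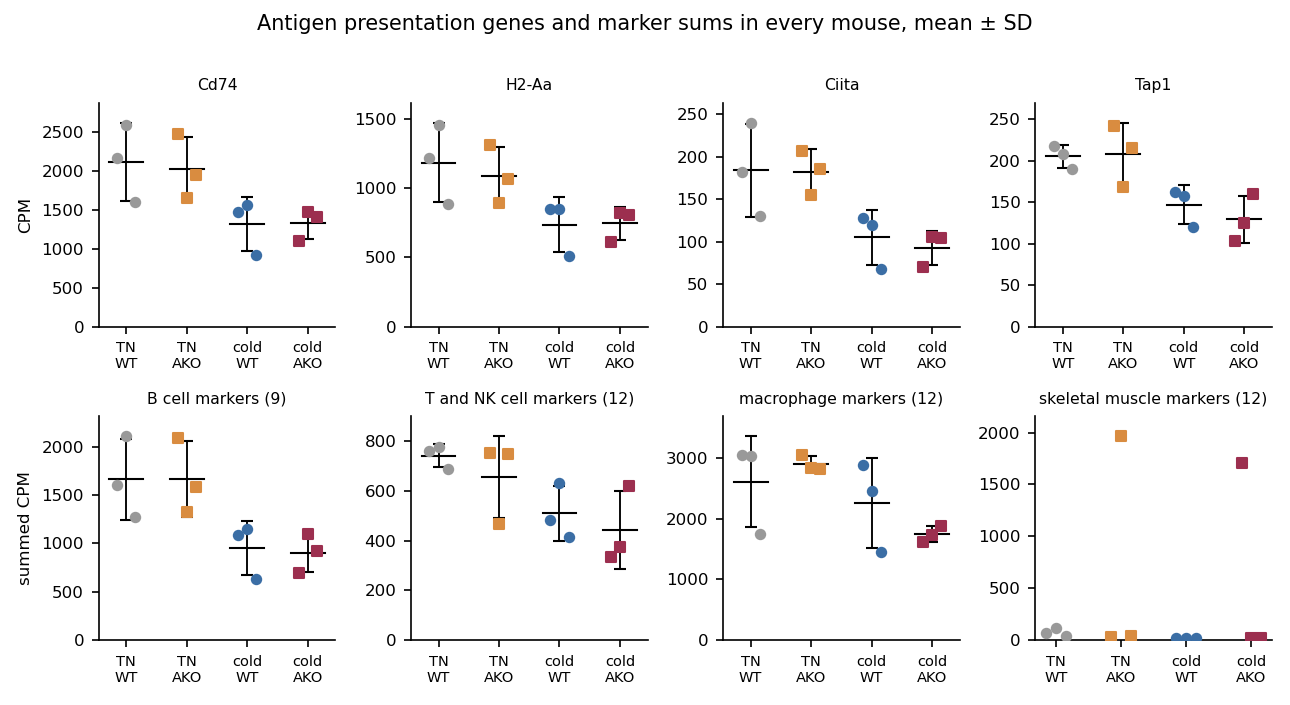
CPM of Cd74, H2-Aa, Ciita and Tap1 (upper row) and the summed CPM of marker genes of B cells, T and NK cells, macrophages and skeletal muscle (lower row, number of genes in parentheses) in every mouse, with the mean and SD of the 3 mice except for muscle; axes start at 0. The B cell sum lies at 1273 to 2107 CPM in TN mice and 632 to 1145 CPM in cold mice, and the muscle sum is high in 1 mouse of each AKO group.

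The genotypes did not differ detectably within either temperature. In cold, 0 of the 37 tested genes passed an adjusted p of 0.05 by edgeR and 0 by DESeq2, beside 0.00653% of all genes, and 0 had an unadjusted p under 0.05, beside 2.95% of all genes. The median log2 difference of AKO from WT in cold was -0.07 over the 37 genes, -0.09 for type I, -0.15 for the 9 Gbp genes and 0.02 for MHC class II. The type I and class II medians change sign when single mice are left out. Gbp10 had the largest of these differences, -0.70 ± 0.48 (SE), and its ranges overlapped.

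At TN the AKO mice had the higher fitted level in all 16 type I genes, with a median log2 difference of 0.55, beside 54.3% of all genes fitted higher. None of the 37 tested genes passed by edgeR (0, beside 0.00653% of all genes) or by DESeq2 (0), and 2 had an unadjusted p under 0.05, Oas2 and Rsad2, beside 2.91% of all genes. Oas2 was higher by 0.74 ± 0.28 (SE) on the log2 scale (edgeR adjusted p = 0.9995). Its TN AKO mice were all above its TN WT mice, as were those of Ifit1, Isg15 and Stat2, with differences of 0.77, 0.51 and 0.27. Such separation was seen for 4 of 37 genes, beside 3.7% of all genes as higher. The macrophage markers had a median difference of 0.24 and the B cell markers of 0.02 between the same mice. The Gbp family without Gbp11 had a median of 0.08 and MHC class II of -0.08.

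The difference between the genotypes in their response to cold, tested as an interaction, passed for 0 of the 37 genes by edgeR and 0 by DESeq2 (0% of all genes), and 2 had an unadjusted p under 0.05, Oas2 and Gbp3, beside 2.14% of all genes. The cold change was fitted lower in AKO than in WT for all 16 type I genes, beside 56% of all genes, with a median interaction of -0.46 on the log2 scale, and for Oas2 it was -1.01 ± 0.39 (SE). For MHC class II the median was 0.09 and for the 9 Gbp genes -0.24. A larger cold change of the type I genes in AKO than in WT is thus not shown by this test. Averaged over both temperatures, AKO differed from WT in 0 of 37 genes by edgeR and 0 by DESeq2, with 0 at an unadjusted p under 0.05 beside 3.64% of all genes.

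Other genes of the same pathways were counted in AKO mice in cold, where 11.5% of all genes were called lower and 15.6% higher. Of 10 interferon receptor and JAK-STAT genes, 2 fell and none rose, the kinases Tyk2 (-0.48) and Jak2 (-0.42). Of 13 interferon regulatory factors and class I and II regulators, 4 fell. Among them were Irf5 (-0.81), Irf8, a factor of dendritic cells and macrophages (-0.81, edgeR adjusted p = 0.0476), and Nlrc5, the class I transactivator (-0.71, edgeR adjusted p = 0.0153). Irf1 had a log2 fold change of -0.32 and did not pass. Of 5 tested interferon and related ligand genes 1 fell, the cytokine Il18 (-1.0). The counts of 2 of 10 and 1 of 5 lie within 1 gene of that share of all genes.

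Of 15 nucleic acid sensing genes, 8 fell and 1 rose, beside the same 11.5% and 15.6% of all genes. The endosomal RNA sensor Tlr7 had the largest fall (-1.45 ± 0.28 SE, edgeR adjusted p = 0.0051), followed among the calls by the DNA sensor cGAS, listed as Mb21d1 (-0.83). Mavs, the mitochondrial adaptor of RNA sensing, rose by 1.12 in AKO mice and also by 1.07 in WT mice. Of 31 other type I response genes, 16 fell and 1 rose. Oas1g fell by 1.42 and Trim30a by 1.08, while Ifi27, listed as Ifi27l1, rose by 1.54. Of 13 other interferon-γ response genes, 4 fell, led by Ifi209 (listed as Pyhin1, -1.14), Ifi203 (-0.96) and Ifi204 (-0.72).

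Beside 11.5% of all genes called lower, the counts of the other MHC genes were small. Of 10 other MHC class II pathway genes, 3 fell: H2-Ob (-1.05), the co-stimulator Cd86 (-0.85) and H2-DMb2 (-0.70). Of 16 other class I pathway genes, 4 fell, led by H2-T23 (-0.71), H2-M3 (-0.68) and the immunoproteasome subunit Psmb9 (-0.52). These counts shrink as the module's do. Without both libraries with muscle transcripts the calls of lower genes were 1 of the receptor and JAK-STAT genes, 1 of the regulatory factors, 4 of the sensing genes, 7 of the other type I genes, 2 of the other interferon-γ genes and 0 in each of the other MHC lists and the ligands. Without TN AKO replicate 1 they were 0, 0, 2, 7 and 1 for the same 5 lists. Over all 12 leave-outs the same 5 ranged from 0 to 3, 0 to 5, 2 to 11, 7 to 23 and 1 to 7, with the lowest count of each list without TN AKO replicate 1 and, for some lists, also without TN AKO replicate 3 or cold AKO replicate 1. In WT, where 5.68% of all genes were called lower against 11.5% in AKO, the same lists gave 0 calls lower among receptor and JAK-STAT, sensing and interferon-γ genes, 3 among regulatory factors, 2 among other type I genes and 2 among other MHC class II genes.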

How the data were processed

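RNA-seq of inguinal adipose tissue from 12 mice was used. Per the labels and the study's methods, the authors trimmed reads with Trim Galore 0.4.4, mapped them to GRCm38 with STAR 2.6.1d and counted reads per gene with HTSeq 0.13.5. The strand setting, annotation and read length are not given in the sources used here. The deposited values are raw counts for 23420 genes, equal in the table of the whole series and in the files of each mouse. The 5 tally rows (reads outside genes 21.9 to 27.0%, multi-aligned 4.40 to 9.33%, ambiguous 1.30 to 1.51%) were left out of library sizes. Multi-aligned reads were not counted in genes, which bears on near-identical or overlapping genes such as Gbp10, Gbp6, Oas1a and Ifit3. Of their 50-base windows, 84.07%, 70.65%, 57.57% and 51.24% occur in another gene.

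Counts were tested with edgeR 4.0.16 (R 4.3.3): TMM factors, filterByExpr (minimum count 10, minimum total 15), 1 factor of 4 groups, the quasi-likelihood test and Benjamini-Hochberg adjustment over 15306 genes, called at 0.05. DESeq2 1.42.0 was an alternative. Depth of 22368316 to 35204631 counts sets the precision of low genes. The test was also tried on data simulated from the mean levels and spread of these libraries. Groups come from the labels, which give no litter or batch. The p-values rest on the spread between libraries within groups, estimated over all 12 libraries together and moderated across genes. No 2 replicates were duplicates (median squared difference over the Poisson value 3.46 to 14.6). Replicate numbers were not taken as pairs: 5 of 18 same-number pairs correlated above 0.1, with a range of -0.43 to 0.39. This check cannot exclude a litter or batch shared by some of the mice.

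The 38 genes and the pathway and marker lists were chosen with earlier results of these data known. Values in every mouse are given for Gbp11, for called genes (up to 5 per group, largest change first) and for the 2 genes with the highest mean CPM in each group, and up to 3 called genes are named from each pathway list, plus Irf1, Irf8 and Nlrc5; 1 further gene is not reported here and was left out of its list. The values of Gbp10 in every mouse were added after they were seen. Of the list genes, 8 stand in the table under older symbols. Positions, exon lengths and 50-base windows come from GENCODE vM21 (GRCm38), and promoters from RefSeq (GRCm38.p6).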

Additional observations from a re-analysis of the deposited data

How the results depend on the processing

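No called value changed direction under the 20 alternatives. In WT mice the count of genes passing in cold, with Gbp11 included (1), became 9 with upper-quartile factors and 2 with every gene that had at least 1 count. It was 9 by DESeq2 and 2 with only the groups compared. It was 3 without both libraries with muscle transcripts and 9 without those and the epithelial library. Leaving out single mice gave 1 to 7. In AKO mice the count (13) became 19 with upper-quartile factors, 11 with every gene that had at least 1 count and 11 with only the groups compared. It was 20 by DESeq2, 5 without the muscle libraries and 4 without the epithelial library as well, and 4 to 26 when single mice were left out. The type I median in AKO ranged from -1.48 to -0.64 in the leave-outs. The settings without muscle or epithelial libraries were chosen after seeing the data. With the replicate number as a block, the AKO count was 10, of which 8 were among the 13, and the WT count 1; the block changed no call between genotypes. Upper-quartile factors shifted the median of all genes in WT by -0.14 and moved the share of lower genes among calls from 26.7% to 57.4% in WT and from 42.5% to 57.6% in AKO, with 38 of 38 module genes fitted lower in both. RLE factors gave 30.3% and 38.6%, with 37 and 38. The counts of 0 between genotypes and for the interaction were 0 in every alternative run. Depth limits Gbp11, Gbp10 and Mx2 the most, with means of 9.94, 6.37 and 7.57 CPM.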
